A study of Mus musculus with 12 samples.

Results

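Extraembryonic endoderm and basement membrane genes were followed across 12 RNA-seq libraries of mouse embryonic stem cells. The set has 10 genes, taken by name from the 41079 genes in the tables: the laminin chains Lama1, Lamb1 and Lamc1, the type IV collagen chains Col4a1 and Col4a2, the matrix glycoprotein Sparc, the transcription factors Gata4, Gata6 and Sox17, and the endocytic adaptor Dab2. The 12 libraries form 4 groups of 3: Bod1l knockout cells (KO) with tamoxifen and etoposide, KO cells with tamoxifen and no etoposide, wild-type cells (WT) with etoposide, and WT cells for which the labels name neither agent. The study's title places the BOD1L protein in the SETD1A complex, an H3K4 methyltransferase, and etoposide traps topoisomerase II on cut DNA. Tamoxifen is named for the KO libraries alone, and whether WT cells also received it or its vehicle is not given in the sources used here. If they did not, tamoxifen and the knockout cannot be told apart in any comparison of KO with WT. The cell line, its strain, the number of clones, the deleted part of Bod1l, the driver of any Cre and the dose and duration of either drug are not given in the sources used here.

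Primitive endoderm is the layer of the blastocyst that covers the pluripotent epiblast and later forms the visceral and parietal endoderm of the yolk sac. GATA6, GATA4 and SOX17 act in its specification, and DAB2 is needed there for the sorting of surface receptors and for an ordered epithelium. Its cells lay down a basement membrane in which laminin-111, made of 1 alpha, 1 beta and 1 gamma chain (the products of Lama1, Lamb1 and Lamc1), forms one network and type IV collagen, a trimer of COL4A1 and COL4A2 chains, forms another. Mouse embryonic stem cells also make laminin and collagen IV chains while they are pluripotent, so these matrix genes alone do not mark the lineage.

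Col4a1 and Col4a2 lie head to head on chromosome 8 and are known to share a bidirectional promoter. In the GRCm39 coordinates of the tables, Col4a1 (minus strand, chr8:11248423-11362889) and Col4a2 (plus strand, chr8:11362878-11499287) overlap at their starts by 12 bases. The libraries were strand-specific per the labels, but whether the counting used strand is not stated, so reads in that overlap could have gone to either gene. RefSeq promoter entries, which are on another build, GRCm38.p6, were matched for 5 of the 10 genes (Col4a1, Col4a2, Lamb1, Sparc and Dab2; 6 entries, with 2 starts for Dab2). Lama1, Lamc1, Gata4, Gata6 and Sox17 had none. Printed first, because this pair changed together, are 30 bases just before the Col4a2 start (GRCm38.p6, chr8:11312773-11312802, plus strand). The Lamb1 promoter (chr12:31265043-31265292, plus strand) and the Dab2 promoter (chr15:6299539-6299788, plus strand) follow, each the 250 bases before the start, because Lamb1 changed mainly with etoposide and Dab2 with genotype. Capitals mark CCAAT and CCCTCCCC in the first, CCAAT and CCGCCC in the second (a GC box, read as GGGCGG on the other strand), and TGATAA in the third.
Col4a2 start: CCAATttgttggcgctgccCCCTCCCCtcg
Lamb1 promoter: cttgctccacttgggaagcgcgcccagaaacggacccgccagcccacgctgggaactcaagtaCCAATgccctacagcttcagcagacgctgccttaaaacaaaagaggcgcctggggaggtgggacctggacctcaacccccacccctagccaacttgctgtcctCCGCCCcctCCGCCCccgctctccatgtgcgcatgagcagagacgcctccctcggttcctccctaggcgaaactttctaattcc
Dab2 promoter: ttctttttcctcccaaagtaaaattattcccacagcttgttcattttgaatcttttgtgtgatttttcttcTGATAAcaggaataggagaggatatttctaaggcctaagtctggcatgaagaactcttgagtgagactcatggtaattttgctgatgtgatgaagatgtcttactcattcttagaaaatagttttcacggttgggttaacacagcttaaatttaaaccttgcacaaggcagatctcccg

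The CCAAT and CCCTCCCC runs began 32 and 13 bases before the Col4a2 start, the Lamb1 CCAAT began 187 bases before its start, and the Dab2 TGATAA began 179 bases before its start. The printed Col4a2 bases lie outside the 250 bases before the Col4a1 start. Those 250 bases held 1 CCAAT, on the other strand and 145 bases before the Col4a1 start, and no CCCTCCCC. On both strands of the 32851 promoters of 250 bases in the RefSeq table, CCAAT was found in 33.8%, GGGCGG in 32.7%, CCCTCCCC in 9.69%, TATAAA in 12.4%, and a GATA motif in 26.5%. The GATA motif was searched as AGATAA and AGATAG, and as TGATAA and TGATAG. The first start of Dab2 was the only one of the 6 entries with a match to that GATA group. These matches describe the letters in the windows and nothing about binding.

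Abundance is given as TPM (transcript abundance scaled for gene length and to a fixed library total), per library or as mean ± SD (n = 3 libraries). Changes are log2 differences of TPM + 1 ± SE, KO minus WT or etoposide minus none, which understates the change of genes near 1 TPM. They were tested with limma across the 14107 genes with a mean of at least 1 TPM, and an adjusted p (Benjamini-Hochberg) under 0.05 was called. Of the 10 genes, 8 passed that filter. Gata6 and Sox17 lay below it, and Gata4 passed although its mean in untreated WT was 0.870 TPM. The labels call the replicates biological without naming separate cultures, so the spread behind each p-value may be partly technical.

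Depth was 5.23 to 7.76 aligned gigabases per library, and Pearson's r between replicates was 0.994 to 0.995 (across genes, themselves no replicates). Bod1l itself averaged 11.6 TPM in KO and 49.3 TPM in WT without etoposide, and 12.4 TPM in KO and 48.7 TPM in WT with it (log2 change -2.00 ± 0.049 and -1.90 ± 0.049, limma adjusted p 1.68e-10 and 2.37e-10). Stem cell markers were abundant everywhere, with Pou5f1 at 1273 to 1524 TPM. Of the endoderm markers, Cer1 was at 0 in every library, Afp and Foxa2 were at no more than 0.233 TPM and Ttr at no more than 0.112 TPM. Others were expressed at low levels, with Hnf4a at 2.38 to 5.40 TPM, Lrp2 at 8.55 to 11.8 TPM, Hhex at 9.76 to 16.0 TPM and Fst at 15.0 to 24.6 TPM.

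**Figure D1:**
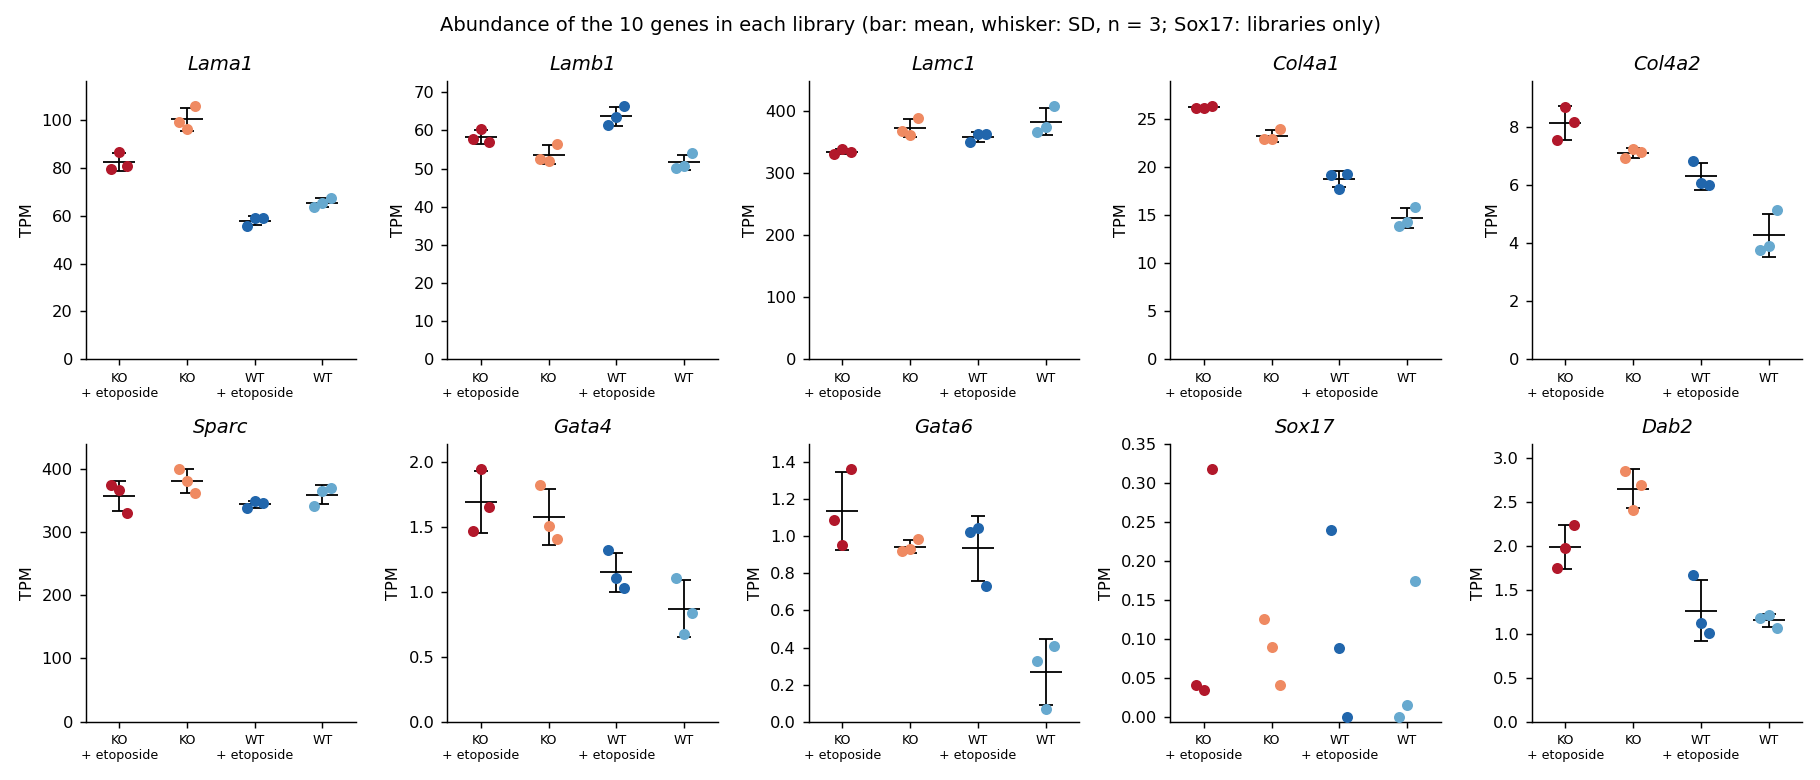
TPM (vertical axes, from 0) of each of the 10 genes in the 12 libraries, one panel per gene, with the 4 groups along the horizontal axis. Points are libraries, bars are means and whiskers SD (n = 3), with libraries only for Sox17. Lama1, Col4a1, Col4a2 and Dab2 lay higher in KO than in WT, whereas Lamc1 and Sparc stood within a narrow band at 330.0 to 407 TPM.

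These are bulk measurements, in which fewer or more cells of a type and less or more RNA per cell cannot be told apart. In untreated cells, KO against WT, 5 of the 8 tested genes were called higher (Lama1, Col4a1, Col4a2, Dab2 and Gata4) and none lower, whereas 28.1% of all tested genes were called higher, 21.5% lower and 49.6% in either direction. With etoposide in both genotypes, 4 were called higher (Lama1, Col4a1, Col4a2 and Dab2) and 1 lower (Lamb1), against 22.5% higher and 21.7% lower of all tested genes, 44.1% together. Etoposide in WT cells gave 3 higher (Lamb1, Col4a1 and Col4a2) and 1 lower (Lama1), against 20.8% and 13.5%, or 34.3% in all. Etoposide in KO cells gave 1 higher (Col4a1) and 2 lower (Lama1 and Lamc1), against 14.5% and 10.5%, or 25.0% in all. Counted by libraries alone, the 2 groups did not overlap for 6 of the 10 genes in untreated KO against WT, all 6 with KO above (57.4% of tested genes separated, 32.8% with KO above and 24.7% below). With etoposide KO lay above for 5 and below for 2 (54.3%, with 28.1% above and 26.1% below). Etoposide libraries of WT lay above for 4 and below for 2 (46.6%, with 27.0% and 19.6%), and those of KO above for 3 and below for 3 (39.5%, with 21.4% and 18.1%). These counts cover all 10 genes, whereas the shares cover the tested genes alone. Gata6, below the filter, was among the 6 with untreated KO above and the 4 with etoposide-treated WT above. Called shares were thus large among all genes, and the genes of the set did not move as 1 block. The median log2 change of the 8 was 0.54 against 0.04 over all tested genes for KO against WT untreated, 0.32 against 0.02 with etoposide, 0.13 against 0.02 for etoposide in WT, and -0.02 against 0.00 for etoposide in KO. The KO against WT comparison and the etoposide comparison in WT both use the untreated WT libraries, and each of the 4 groups enters a pair of the comparisons, so the comparisons are not independent of each other.

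**Figure D2:**
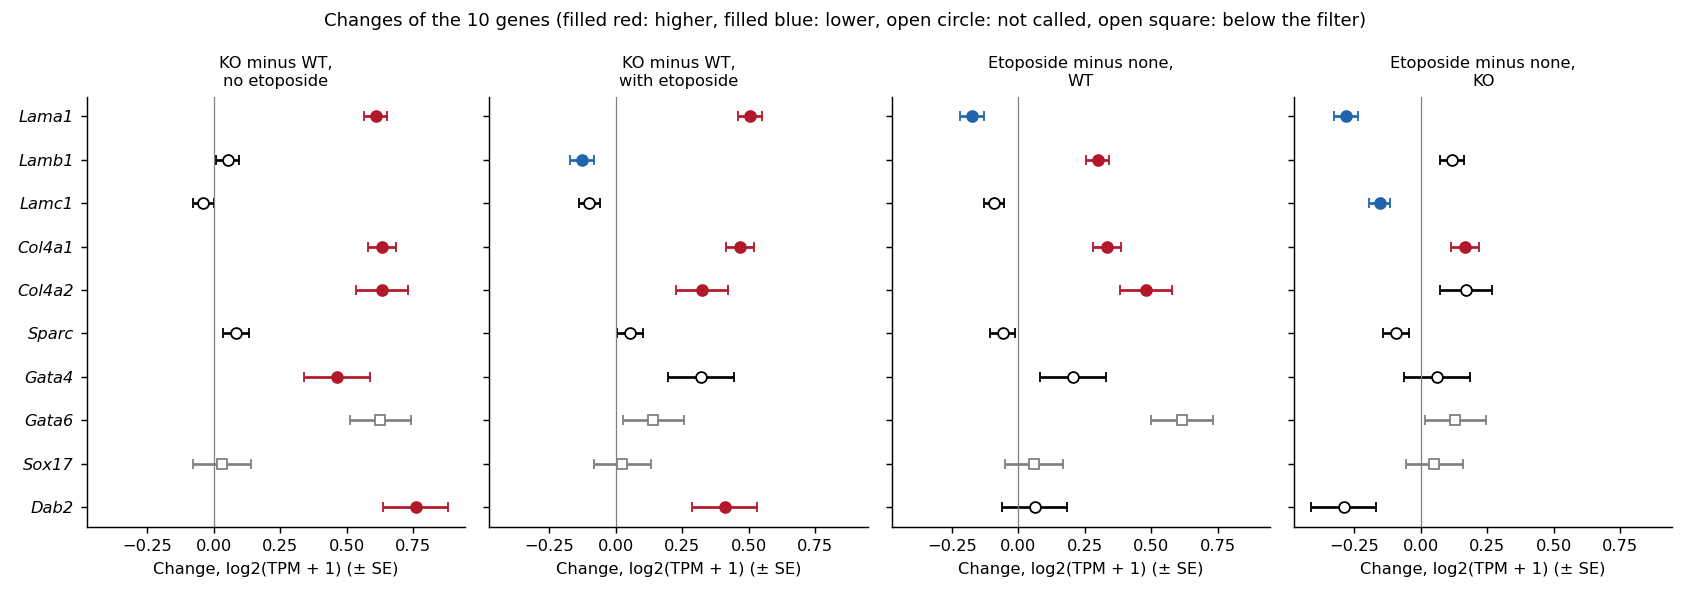
Log2 change of TPM + 1 (horizontal axes, bars are SE) of each gene in the 4 comparisons. Filled circles were called, red for higher and blue for lower, and open circles were not. Open squares are Gata6 and Sox17, which lay below the filter and come from the fit without it. Col4a1 lies right of 0 in all 4 comparisons, whereas Lama1 lies right of 0 for KO against WT and left of 0 for etoposide.

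Lama1, the alpha chain that carries the cell-binding domains of laminin-111 (GRCm39 chr17:68004129-68129640, plus strand), rose in KO cells and fell with etoposide. It had 79.6, 86.8 and 81.0 TPM in KO with etoposide, 99.1, 96.2 and 106 TPM in untreated KO, 55.7, 58.9 and 59.0 TPM in WT with etoposide, and 63.6, 65.2 and 67.5 TPM in untreated WT. No group overlapped its neighbour in that order of levels, which ran from untreated KO through KO with etoposide and untreated WT to WT with etoposide. Lama1 was 1.53-fold higher in KO than in WT without etoposide (log2 change 0.61 ± 0.044, limma adjusted p 4.56e-07) and 1.43-fold higher with it (0.50 ± 0.044, 2.88e-06). Etoposide lowered it by less, with a log2 change of -0.28 ± 0.044 in KO cells (limma adjusted p 0.000590) and -0.17 ± 0.044 in WT cells (0.00880).

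Lamb1, the beta chain of laminin-111 (chr12:31315230-31379643, plus strand), rose with etoposide in WT cells. Its levels were 57.6, 60.3 and 56.9 TPM in KO with etoposide, 52.4, 52.1 and 56.4 TPM in untreated KO, 61.4, 63.6 and 66.3 TPM in WT with etoposide, and 50.3, 50.8 and 54.0 TPM in untreated WT. The 2 untreated groups overlapped, and WT with etoposide lay above every other group. The etoposide change was 0.30 ± 0.044 in WT cells (1.23-fold, limma adjusted p 0.000205). In KO cells it was 0.12 ± 0.044 (adjusted p 0.0706), which was not called although the 3 treated libraries lay above the 3 untreated ones. With etoposide Lamb1 was lower in KO than in WT (-0.13 ± 0.044, limma adjusted p 0.0327), and without it the change was 0.05 ± 0.044 (0.338). That lower call ended without KO with etoposide replicate 1 or 3 or WT with etoposide replicate 2 or 3 (adjusted p 0.0667 to 0.124) and with no filter on low values (0.0567), and leaving out untreated KO replicate 3 brought the etoposide change in KO cells to an adjusted p of 0.0308.

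Lamc1, the gamma chain shared by most laminins (chr1:153094668-153208532, minus strand), was among the most abundant of the set and moved little. It averaged 334 ± 4.07 TPM in KO with etoposide, 372 ± 15.0 TPM in untreated KO, 358 ± 7.99 TPM in WT with etoposide and 382 ± 22.0 TPM in untreated WT. The untreated groups overlapped, and KO cells with etoposide, at 330.4 to 338 TPM, lay below all other libraries. Lamc1 fell with etoposide in KO cells (-0.15 ± 0.039, limma adjusted p 0.0121). Its other changes were -0.09 for etoposide in WT cells (adjusted p 0.0917), -0.10 for KO against WT with etoposide (0.0540) and -0.04 for KO against WT without it (0.443). The change of KO against WT with etoposide passed under some other settings, with adjusted p 0.0444 after median-of-ratios scaling, 0.0213 on FPKM, 0.0481 at a mean TPM of at least 5 and 0.0135 on the compared groups alone, and without untreated KO replicate 3 or untreated WT replicate 1 or 3 (0.0175 to 0.0441). The etoposide change in WT cells passed after median-of-ratios scaling (0.0223), on FPKM (0.0385) and without untreated WT replicate 1 (0.0433).

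Because the 3 chains assemble in equal numbers in laminin-111, the balance of their RNA was compared within each library. The Lamb1 and Lamc1 products also join other laminins, such as laminin-511 with the Lama5 product, so the ratios do not measure laminin-111 alone. The ratio of Lama1 to Lamb1 TPM was 1.41 ± 0.030 in KO with etoposide, 1.87 ± 0.023 in untreated KO, 0.907 ± 0.018 in WT with etoposide and 1.27 ± 0.017 in untreated WT. No pair of compared groups overlapped in this ratio, which was higher in KO and lower with etoposide (exact two-sided permutation p = 0.1 in each of the 4 comparisons, the smallest that 3 against 3 allows). Which chain was higher depended on the measure. Mean read depth per aligned gigabase of Lama1 was 18.4, 22.3, 12.9 and 14.9 in those groups, in the same order. That of Lamb1 was 21.1, 19.5, 23.4 and 19.2, so by depth Lama1 lay above Lamb1 in untreated KO alone. The reason for the difference between the measures was not examined. In TPM, Lamc1 exceeded Lama1 by 4.06 ± 0.137-fold in KO with etoposide, 3.71 ± 0.036-fold in untreated KO, 6.20 ± 0.064-fold in WT with etoposide and 5.84 ± 0.172-fold in untreated WT. The gamma chain RNA was thus in excess of both others in every group, and least so over Lama1 in KO cells. Over Lamb1 the excess was 5.74 ± 0.129, 6.94 ± 0.060, 5.62 ± 0.137 and 7.40 ± 0.135-fold in those same groups, and KO and WT with etoposide overlapped (exact permutation p = 0.4). The 3 chains summed to 475 ± 9.41 TPM in KO with etoposide, 526 ± 22.3 TPM in untreated KO, 480.1 ± 12.0 TPM in WT with etoposide and 499 ± 25.9 TPM in untreated WT.

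**Figure D3:**
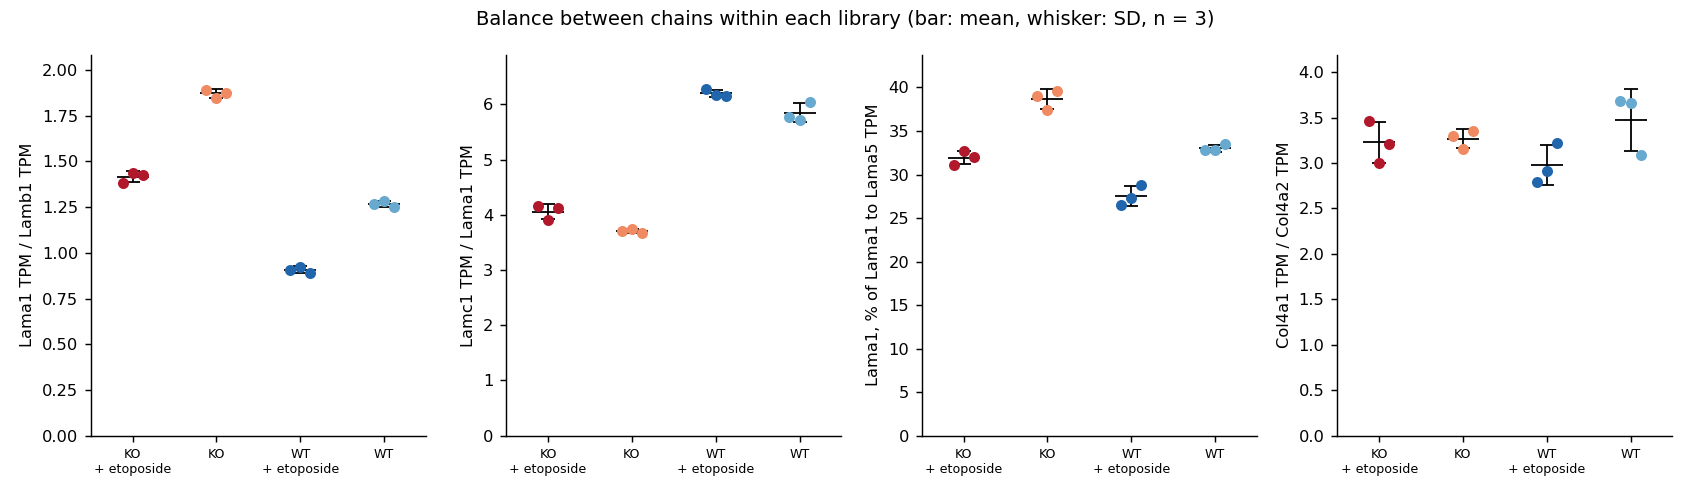
Ratios between chains within each library (vertical axes, TPM over TPM, or percent for Lama1 among alpha chains), with points for libraries, bars for means and whiskers for SD (n = 3). The ratio of Lama1 to Lamb1 separates all 4 groups, and the ratio of Col4a1 to Col4a2 does not separate any compared pair.

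The other alpha chain at a high level was Lama5, the alpha chain of laminin-511, which embryonic stem cells also bind. Lama1 made up 31.9 ± 0.770% of all laminin alpha chain TPM in KO with etoposide, 38.7 ± 1.12% in untreated KO, 27.5 ± 1.14% in WT with etoposide and 33.0 ± 0.403% in untreated WT. No compared pair overlapped (exact permutation p = 0.1 each, the smallest possible). Lama5 averaged 173 ± 3.15 TPM in KO with etoposide, 157 ± 3.52 TPM in untreated KO, 149 ± 5.63 TPM in WT with etoposide and 130.5 ± 1.89 TPM in untreated WT. It rose in KO cells (0.27 ± 0.030 without etoposide, limma adjusted p 1.97e-05), as Lama1 did, and rose with etoposide (0.19 ± 0.030 in WT cells, 0.000427), where Lama1 fell. Lama3, another alpha chain, stood at 1.09 to 3.56 TPM and rose with etoposide in WT cells (0.61 ± 0.116, limma adjusted p 0.00136). Unlike Lama1 and Lama5, Lama3 was called lower in KO than in WT with etoposide (1.57 to 1.68 against 2.42 to 3.56 TPM). Without etoposide it was not called, although KO libraries (1.09 to 1.21 TPM) lay below WT libraries (1.41 to 1.55 TPM). Of the other beta chains, Lamb2 stood at 24.6 to 31.6 TPM and was called higher in untreated KO alone. Lamb3, at 1.92 to 4.64 TPM, was called higher in all 4 comparisons. With no filter its calls ended for KO against WT with etoposide (limma adjusted p 0.0573) and for etoposide in KO cells (0.0704). After quantile normalization its calls for etoposide ended in WT cells (0.136) and in KO cells (0.117). On the compared groups alone the call in KO cells ended too (0.0515). It also ended without any 1 replicate of KO with etoposide or without untreated KO replicate 1 or 2 (0.0512 to 0.119). For KO against WT with etoposide, the call ended without treated KO replicate 1 or 3 or treated WT replicate 2 or 3. The limma adjusted p was then 0.0565 to 0.0802. Lama2, Lama4 and Lamc3 stayed under 1 TPM in every library.

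**Figure D4:**
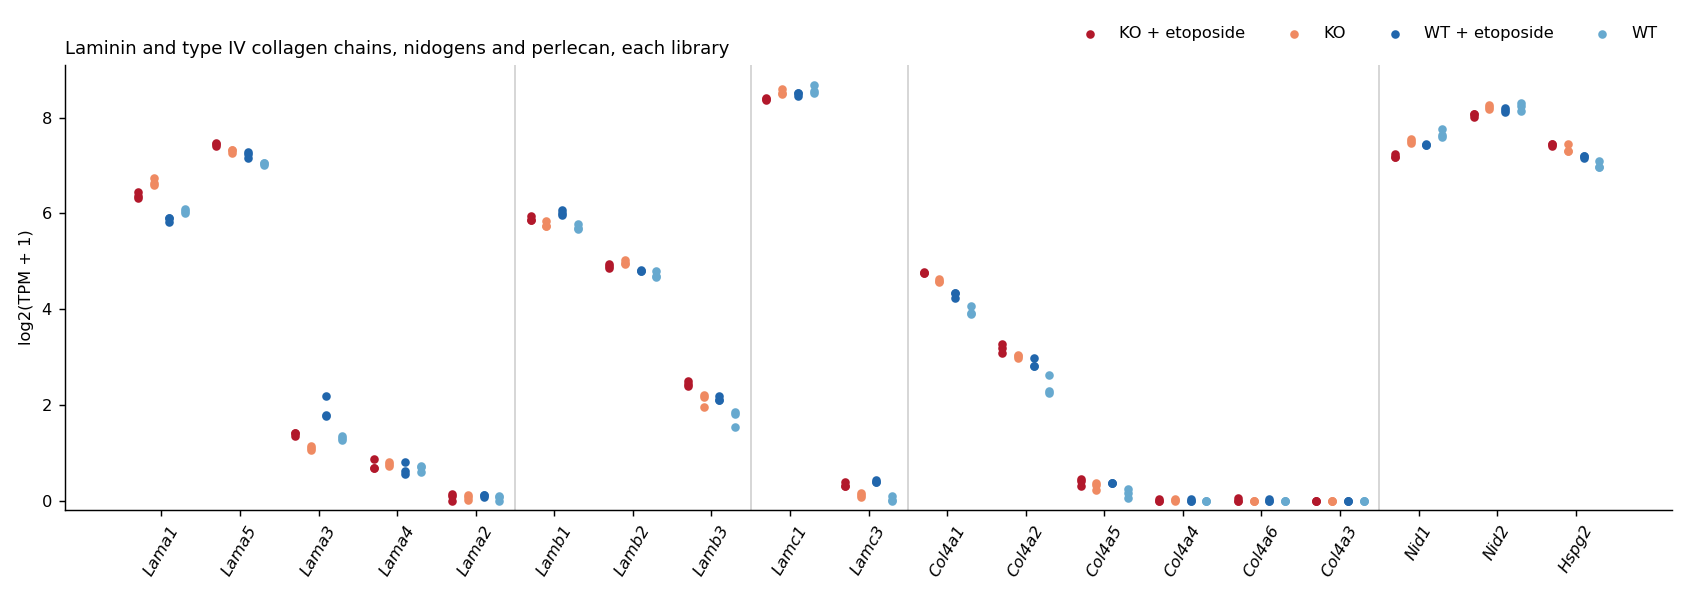
Log2(TPM + 1) per library (vertical axis) of the laminin and type IV collagen chains reported here, the nidogens Nid1 and Nid2 and perlecan (Hspg2), set along the horizontal axis. Points are libraries coloured by group. Lamc1, Nid2, Nid1, Lama5, Hspg2 and Lama1 make up the upper end, and Col4a3 to Col4a6 lie at the bottom.

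Col4a1, the chain present as a pair in each collagen IV trimer with COL4A2, rose in KO cells and with etoposide. It had 26.1, 26.1 and 26.3 TPM in KO with etoposide, 22.9, 22.9 and 24.0 TPM in untreated KO, 19.1, 17.7 and 19.3 TPM in WT with etoposide, and 13.9, 14.2 and 15.8 TPM in untreated WT. The 4 groups stood apart with no overlap. KO exceeded WT by 1.59-fold without etoposide (0.63 ± 0.053, limma adjusted p 1.44e-06) and by 1.40-fold with it (0.47 ± 0.053, 2.40e-05). Etoposide raised Col4a1 by 0.33 ± 0.053 in WT cells (limma adjusted p 0.000384) and by 0.17 ± 0.053 in KO cells (0.0392). The call in KO cells ended without any 1 replicate of KO with etoposide or without untreated KO replicate 1 or 2 (adjusted p 0.0849 to 0.104), after quantile normalization (0.0825) and with no filter (0.0556).

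Col4a2, its partner chain, lay at a lower level with the same order of groups. Its levels were 7.55, 8.71 and 8.19 TPM in KO with etoposide, 6.93, 7.27 and 7.15 TPM in untreated KO, 6.85, 6.09 and 6.00 TPM in WT with etoposide, and 3.77, 3.89 and 5.14 TPM in untreated WT. No compared pair of groups overlapped, and untreated WT was the lowest. KO was 1.67-fold higher than WT without etoposide (0.63 ± 0.097, limma adjusted p 0.000200) and 1.29-fold higher with it (0.32 ± 0.097, 0.0176). Etoposide raised it 1.48-fold in WT cells (0.48 ± 0.097, adjusted p 0.00212), and in KO cells the change was 0.17 ± 0.097 (0.230). The call of KO against WT with etoposide ended without KO with etoposide replicate 2 or WT with etoposide replicate 2 or 3 (adjusted p 0.0529 to 0.0669).

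The ratio of Col4a1 to Col4a2 was 3.23 ± 0.230 in KO with etoposide, 3.27 ± 0.103 in untreated KO, 2.97 ± 0.220 in WT with etoposide and 3.47 ± 0.338 in untreated WT. It overlapped in every compared pair (exact permutation p 0.2 to 0.9), unlike the ratio of the laminin alpha and beta chains. The other chains, Col4a3, Col4a4, Col4a5 and Col4a6, were all below the filter, with Col4a3 at 0 in every library and Col4a5 at no more than 0.367 TPM.

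Sparc encodes a collagen-binding glycoprotein that is abundant in parietal endoderm (chr11:55284985-55310906, minus strand). It had 374, 366 and 330.0 TPM in KO with etoposide, 399, 380 and 362 TPM in untreated KO, 338, 348 and 345 TPM in WT with etoposide, and 341, 364 and 369 TPM in untreated WT. All compared groups overlapped. Its changes were 0.09 and 0.05 for KO against WT without and with etoposide, and -0.06 and -0.09 for etoposide in WT and KO cells, each ± 0.048, and none was called (limma adjusted p 0.164 to 0.415).

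The 3 lineage transcription factors stood near the lower limit of what the libraries resolve. Gata4, a zinc-finger factor of primitive endoderm and heart (chr14:63436363-63509161, minus strand), had 1.47, 1.94 and 1.65 TPM in KO with etoposide, 1.82, 1.51 and 1.40 TPM in untreated KO, 1.32, 1.10 and 1.03 TPM in WT with etoposide, and 1.10, 0.673 and 0.836 TPM in untreated WT. KO libraries lay above WT libraries at either treatment, and treatments overlapped within each genotype. Gata4 rose in KO without etoposide (0.46 ± 0.124, limma adjusted p 0.00824). With etoposide its change was 0.32 ± 0.124 (adjusted p 0.0539), which passed only without untreated WT replicate 1 (0.0487). Etoposide changed it by 0.06 ± 0.124 in KO cells (adjusted p 0.772) and by 0.20 ± 0.124 in WT cells (0.235).

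Gata6, the factor at the head of the primitive endoderm programme (chr18:11052510-11085636, plus strand), had 1.09, 0.950 and 1.36 TPM in KO with etoposide, 0.920, 0.929 and 0.984 TPM in untreated KO, 1.02, 1.05 and 0.733 TPM in WT with etoposide, and 0.329, 0.0679 and 0.407 TPM in untreated WT. Untreated WT lay below all 9 other libraries, which overlapped among themselves. On its own values, the exact two-sided permutation p was 0.1 for KO against WT without etoposide and for etoposide in WT cells, the smallest that 3 against 3 allows, and 0.4 and 0.2 for KO against WT with etoposide and etoposide in KO cells. In the limma fit with no filter, over 27304 genes, its change was 0.63 ± 0.115 for KO against WT untreated (adjusted p 0.00254) and 0.62 ± 0.115 for etoposide in WT cells (0.00399), and 0.14 and 0.13 in the other comparisons (0.452 and 0.567). The filtered test did not include Gata6.

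Sox17, a factor of both primitive and definitive endoderm (chr1:4561154-4567624, minus strand), was listed at 0.0408, 0.0340 and 0.318 TPM in KO with etoposide, 0.125, 0.0889 and 0.0405 TPM in untreated KO, 0.240, 0.0879 and 0 TPM in WT with etoposide, and 0, 0.0154 and 0.174 TPM in untreated WT. The groups overlapped throughout (exact permutation p 0.7 to 0.9). The mean read depth over the gene was 1.58 to 4.55 for Gata4, 0.166 to 3.45 for Gata6 and 0 to 0.330 for Sox17, so differences in Sox17 were not detectable at this depth.

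Dab2, a clathrin adaptor that sorts receptors of the LDL receptor family (chr15:6329269-6470196, plus strand), rose in KO cells. It had 1.75, 1.98 and 2.25 TPM in KO with etoposide, 2.85, 2.41 and 2.70 TPM in untreated KO, 1.67, 1.13 and 1.00 TPM in WT with etoposide, and 1.19, 1.21 and 1.07 TPM in untreated WT. All KO libraries lay above all WT libraries, and within KO the treated libraries lay below the untreated ones. KO exceeded WT by 2.29-fold without etoposide (0.76 ± 0.122, limma adjusted p 0.000288) and by 1.57-fold with it (0.41 ± 0.122, 0.0171). Etoposide changed Dab2 by -0.29 ± 0.122 in KO cells (adjusted p 0.106; 0.0394 after quantile normalization) and by 0.06 ± 0.122 in WT cells (0.742). The call of KO against WT with etoposide ended on the compared groups alone (0.0530) and without KO with etoposide replicate 3 or WT with etoposide replicate 2 or 3 (0.0557 to 0.0706), and the mean read depth over Dab2 was 0.289 to 0.795 per library. That is below the depth over Gata4 (1.58 to 4.55), whose TPM of 0.673 to 1.94 lay in a like range; the reason was not examined, and the values of Dab2 rest on thin coverage.

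The lists of other cell types were fixed with earlier results of these data known. For primitive endoderm outside the set (Pdgfra, Sox7, Foxa2, Hnf4a, Foxq1, Cubn, Amn and Lrp2), 3 of 8 genes passed the filter and none was called between untreated KO and WT. Its summed level was 16.1 to 16.7 TPM in untreated KO and 15.4 to 17.6 TPM in untreated WT. With etoposide, Pdgfra, a receptor of primitive endoderm, rose in KO (0.57 ± 0.120, limma adjusted p 0.00390) and in WT cells (0.65 ± 0.120, 0.00121), and Lrp2, the endocytic receptor megalin, fell in KO cells (-0.28 ± 0.060, 0.00426) and in WT cells (-0.22 ± 0.060, 0.0128; 0.0551 without untreated WT replicate 3). Hnf4a, a factor of visceral endoderm, was lower in KO than in WT with etoposide (-0.38 ± 0.099, limma adjusted p 0.00792). It rose with etoposide in WT cells (0.63 ± 0.099, limma adjusted p 0.000358) and in KO cells (0.34 ± 0.099, 0.0239). The call in KO cells ended without KO with etoposide replicate 1 or 2 or untreated KO replicate 1 (0.0503 to 0.0879), with no filter (0.0556) and after quantile normalization (0.0873).

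For visceral endoderm 2 of 10 markers, Hnf4a and Hhex, passed the filter, and neither was called between untreated KO and WT. With etoposide both were called higher in WT and in KO cells, against 20.8% and 14.5% of all tested genes. Hnf4a was called lower in KO than in WT with etoposide. The Hhex call in WT cells ended after quantile normalization (limma adjusted p 0.0628). The 10 markers summed to 18.7 to 22.7 TPM in KO with etoposide and 14.5 to 15.7 TPM in untreated KO. In WT they summed to 21.4 to 23.8 TPM with etoposide and 15.1 to 16.0 TPM without it. Hhex was the largest part of that sum, and 6 of the 10 markers stayed under 1 TPM in every library. Of the parietal endoderm markers 3 of 6 passed, and Fst (0.35 ± 0.062, limma adjusted p 0.000527) and Plat (0.52 ± 0.139, 0.00807) were called higher in untreated KO, with sums of 32.1 to 33.2 TPM in untreated KO and 24.0 to 26.7 TPM in untreated WT. Fst encodes an activin-binding protein and Plat a plasminogen activator. Feeder fibroblast markers, of which 7 of 10 stayed under 1 TPM in every library, summed to 9.97 to 10.4 TPM in KO with etoposide, 9.79 to 11.1 TPM in untreated KO, 11.2 to 12.0 TPM in WT with etoposide and 10.9 to 12.0 TPM in untreated WT. Of the 3 tested, Thy1 was called lower in KO than in WT at either treatment, and Col1a1 higher with etoposide in both genotypes. Each of these calls ended when some single libraries were left out. Stem cell markers summed to 7204 to 7535 TPM in KO with etoposide, 7568 to 7686 TPM in untreated KO, 7766 to 8085 TPM in WT with etoposide and 8243 to 8258 TPM in untreated WT. Dppa5a alone averaged 3335 ± 119 TPM in KO with etoposide, 3259 ± 15.9 TPM in untreated KO, 3932 ± 195 TPM in WT with etoposide and 3806 ± 20.4 TPM in untreated WT. Of the 8 stem cell markers, all tested, none was higher and 2 were lower in untreated KO against WT, 4 and 2 with etoposide, none and 4 for etoposide in WT, and 1 and 4 for etoposide in KO, with medians of 0.00, 0.04, -0.12 and -0.08. The markers lower in KO than in WT were Dppa5a and Pou5f1, with and without etoposide. The 4 higher in KO than in WT with etoposide were Klf4, Zfp42, Nanog and Esrrb. Zfp42 and Nanog were called lower with etoposide than without in both genotypes. The Nanog call for KO against WT ended on FPKM (limma adjusted p 0.0662), after quantile normalization (0.482) and on the compared groups alone (0.0533). It also ended without KO with etoposide replicate 2 or 3 or WT with etoposide replicate 1 (0.0540 to 0.0733). The Zfp42 call ended after quantile normalization (0.129). Over all tested genes 28.1% were called higher and 21.5% lower in untreated KO, and 22.5% and 21.7% with etoposide. For etoposide against none, 20.8% and 13.5% were called in WT, and 14.5% and 10.5% in KO. The medians over all tested genes were 0.04, 0.02, 0.02 and 0.00 in that order. Of the definitive endoderm and streak markers, 4 of 6 were tested, with 1 higher and 1 lower in untreated KO. The higher call, Cxcr4, ended with no filter (limma adjusted p 0.0936), on FPKM (0.0691), after quantile normalization (0.131) and under further settings. The lower call, Eomes, ended without untreated WT replicate 2 (0.0546). Of the trophectoderm markers 5 of 7 were tested, with 1 higher and 2 lower, and of the endothelial markers 3 of 6, with 1 higher and 1 lower. Among the trophectoderm calls, the higher Cdx2 call ended without untreated KO replicate 2 (limma adjusted p 0.0581). The lower Ascl2 call ended with no filter (0.0573) and without replicate 3 of untreated KO or of untreated WT (0.0639 to 0.0856). The part of these cell types in the changes above was not tested.

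For the difference of the etoposide change between KO and WT, none of the 8 tested genes was called, against 1.23% of all tested genes (0.0709% higher and 1.16% lower). Without adjustment 3 of the 8 had a limma p under 0.05, against 11.4% of all tested genes, the closest being Lamb1 (-0.18 ± 0.062, adjusted p 0.260), Col4a2 (-0.31 ± 0.137, 0.417) and Col4a1 (-0.17 ± 0.075, 0.422). All 8 estimates were negative, with a median of -0.16 against -0.02 over all tested genes. Gata6, in the fit with no filter, had -0.49 ± 0.162 (adjusted p 0.399). The smaller etoposide changes of Lamb1, Col4a2 and Gata6 in KO than in WT cells were therefore not shown to differ.

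Of 13 tested structural components of the basement membrane outside the set, 5 were higher and 1 lower in untreated KO against WT, 2 higher and 4 lower with etoposide, 7 higher and 1 lower for etoposide in WT, and 5 higher and 2 lower for etoposide in KO. Their median log2 changes were 0.03, -0.01, 0.13 and 0.07 in that order, against 0.04, 0.02, 0.02 and 0.00 over all tested genes. The shares of all tested genes called higher and lower were 28.1% and 21.5%, 22.5% and 21.7%, 20.8% and 13.5%, and 14.5% and 10.5% in the same order. Vwa1, among the higher calls in untreated KO and for etoposide in WT, passed the filter although its mean in untreated WT was 0.502 TPM. Perlecan, which links the laminin and collagen networks, rose in untreated KO (Hspg2, 0.34 ± 0.044, limma adjusted p 4.84e-05), whereas nidogen-1, which bridges them too, fell (Nid1, -0.15 ± 0.041, 0.00886). Nid1 also fell with etoposide, by -0.31 ± 0.041 in KO cells (limma adjusted p 0.000124) and -0.22 ± 0.041 in WT cells (0.000998). The largest etoposide changes on this list were those of nephronectin, an integrin ligand (Npnt, 1.01 ± 0.078 in KO and 1.56 ± 0.078 in WT cells, limma adjusted p 1.89e-06 and 1.78e-08). Npnt and Fbln2 were called lower for the difference of the etoposide change between KO and WT. These were 2 of the 13, against 1.16% of all tested genes. Both calls ended with no filter (limma adjusted p 0.0849 and 0.0628), after quantile normalization (0.162 and 0.0894) and under further settings.

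Of 15 tested genes for the assembly of collagen and laminin, 9 were higher and 2 lower in untreated KO against WT, 7 and 2 with etoposide, 3 and 1 for etoposide in WT, and 3 and 3 for etoposide in KO. All tested genes had shares of 28.1% and 21.5%, 22.5% and 21.7%, 20.8% and 13.5%, and 14.5% and 10.5% in that order. The list's medians were 0.20, 0.16, -0.03 and -0.03, against 0.04, 0.02, 0.02 and 0.00. Plod2, a lysyl hydroxylase of collagen, averaged 90.5 ± 1.53 TPM in KO with etoposide, 53.9 ± 3.4 TPM in untreated KO, 70.1 ± 2.29 TPM in WT with etoposide and 33.8 ± 2.59 TPM in untreated WT, and rose in all 4 comparisons (0.36 to 1.03, limma adjusted p no higher than 0.000239). Serpinh1, the collagen chaperone HSP47, rose with etoposide in KO (0.22 ± 0.042, limma adjusted p 0.00204) and WT cells (0.45 ± 0.042, 5.06e-06). Ppib, a prolyl isomerase of the collagen-folding complex, was lower in untreated KO (-0.31 ± 0.047, limma adjusted p 0.000191).

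**Figure D5:**
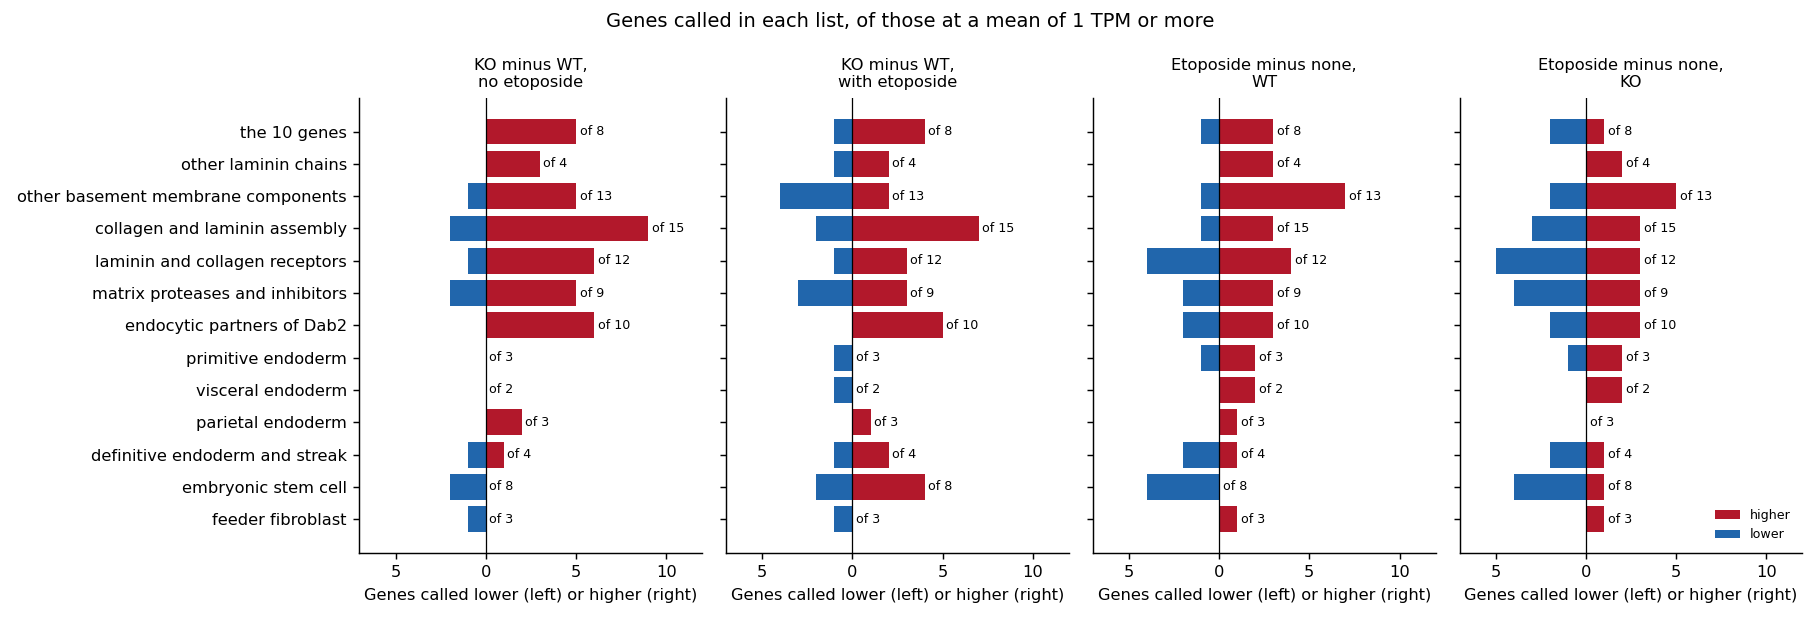
Number of genes called higher (right) and lower (left) by limma in each list and comparison, with the number tested to the right of the bars. Assembly genes and endocytic partners of Dab2 have more higher than lower calls for KO against WT, and nearly equal numbers for etoposide in KO cells.

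The list of laminin and collagen receptors also held Itga5, Itgav, Itgb3 and Itgb5, integrin chains known mainly for binding other matrix proteins. Of its 12 tested genes, 6 were higher and 1 lower in untreated KO, and 3 and 1 with etoposide. For etoposide against none, 4 were higher and 4 lower in WT, and 3 and 5 in KO. In that order the shares over all tested genes were 28.1% and 21.5%, 22.5% and 21.7%, 20.8% and 13.5%, and 14.5% and 10.5%. The list's medians were 0.16, 0.05, 0.01 and -0.06, against 0.04, 0.02, 0.02 and 0.00 over all tested genes. Itga5 gave the 1 lower call in each KO against WT comparison. Bcam, a receptor for the laminin alpha-5 chain, was higher in untreated KO (0.33 ± 0.028, limma adjusted p 1.57e-06), and the fibronectin receptor chain Itga5 was lower (-0.33 ± 0.044, 6.38e-05). Itgb4, the beta chain of a laminin-binding integrin, rose with etoposide in KO (0.58 ± 0.060, limma adjusted p 2.10e-05) and WT cells (1.02 ± 0.060, 7.02e-08). Of the 12, Itgb4 alone was called for the difference of the etoposide change between KO and WT (lower, against 1.16% of all tested genes). That call ended with no filter (limma adjusted p 0.0628), after quantile normalization (0.0642) and under further settings. Itgb1, the partner of most laminin-binding alpha chains, fell with etoposide in KO cells (-0.28 ± 0.041, limma adjusted p 0.000340). Itgb1 was also called lower with etoposide in WT cells, and higher in untreated KO than in untreated WT. The collagen receptor Ddr2 was higher in KO than in WT with etoposide (0.76 ± 0.073, limma adjusted p 5.93e-06), and was called higher without it too. Ddr1 rose with etoposide in WT cells (0.84 ± 0.080, limma adjusted p 5.53e-06), and was also called higher with it in KO cells.

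Of 9 tested matrix proteases and inhibitors, 5 were higher and 2 lower in untreated KO, 3 and 3 with etoposide, 3 and 2 for etoposide in WT, and 3 and 4 for etoposide in KO, with medians of 0.17, 0.06, 0.06 and -0.12. Against these counts, and those of endocytic partners given next, stand shares of 28.1% and 21.5%, 22.5% and 21.7%, 20.8% and 13.5%, and 14.5% and 10.5% over all tested genes, with medians of 0.04, 0.02, 0.02 and 0.00. The membrane-bound protease Mmp15 rose with etoposide in KO (0.85 ± 0.071, limma adjusted p 3.39e-06) and WT cells (1.08 ± 0.071, 1.75e-07), and the inhibitor Timp1 was lower in untreated KO (-0.20 ± 0.036, 0.000551). Of 10 tested endocytic partners of Dab2, 6 were higher and none lower in untreated KO, 5 and none with etoposide, and 3 higher and 2 lower for etoposide in either genotype, with medians of 0.16, 0.10, -0.01 in WT and 0.02 in KO. The adaptor subunit Ap2a1 (0.22 ± 0.025, limma adjusted p 1.51e-05) and the motor Myo6, which binds DAB2 (0.43 ± 0.068, 0.000249), were higher in untreated KO. The receptor Lrp1 rose with etoposide in WT cells (0.66 ± 0.056, limma adjusted p 1.98e-06), where Dab2 itself was not called.

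The genes whose pattern over the 12 libraries was most like that of each tested member were found by the root mean square difference of log2(TPM + 1) after each gene's mean was taken off, among 12572 named genes. The values describe likeness over libraries that share the 4 groups. For Lama1 the closest were Dusp6 (difference 0.078), Trmt44 (0.081) and Hexa (0.084), and for Lamb1 they were Col18a1 (0.036), Unc5b (0.039) and Dnajc18 (0.047). For Lamc1 they were Nid2 (0.033), Ly75 (0.034) and Adam10 (0.036), and for Sparc Usp48 (0.024), Npc2 (0.029) and Calr (0.030). Lamc1 and Sparc varied little themselves, with an SD over the libraries of 0.088 and 0.079 on the same scale, against 0.319 for Lama1.

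For Col4a1 the closest were Slc5a3 (0.048), Zfp950 (0.055) and Afap1l1 (0.063), with Col4a2 at rank 25 (0.095). For Col4a2 they were Bin3 (0.073), Tmem132a (0.087) and Calr4 (0.089), with Col4a1 at rank 4. Gata4 was closest to Ggcx (0.075), Mageh1 (0.089) and Inpp4a (0.090), and Dab2 to Cpsf4l (0.121), Slc36a4 (0.131) and Pdgfrl (0.134). Lama1 came at rank 27 for Dab2 and Dab2 at rank 149 for Lama1, whereas Lamb1 came at rank 7732 for Lama1. The collagen chains thus ranked near each other, and the alpha and beta chains of laminin-111 did not.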

How the data were processed

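RNA was measured in 12 mouse embryonic stem cell libraries (poly(A)-selected, strand-specific, per the labels' protocols). Per the submitters' processing notes, the tools were Trim Galore 0.6.6, cutadapt 3.4, HISAT2 2.2.1 and StringTie 2.2.1, with build GRCm39. The TPM values were deposited per gene and library, per the file headers, and sum to a fixed total. The deposited FPKM values are scaled by mapped fragments, and the deposited coverage is unscaled mean read depth.

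These are not read counts, so limma 3.58.1 (R 4.3.3) was fitted on log2(TPM + 1) for 14107 genes with mean TPM of at least 1 (trended variances, 4 group means, prior degrees of freedom 3.91, residual 8), with Benjamini-Hochberg adjustment over all genes of each of 5 comparisons and a threshold of 0.05. Entries sharing an ID were summed. The code was tested on simulated data. Depth was taken as the coverage per FPKM that 28.4 to 28.9% of genes had in common. The members and lists were chosen with earlier results of these data known. Named were all 10 members, up to 4 called genes of lowest adjusted p per list and comparison, the laminin and collagen IV chains, the nidogens, perlecan and Bod1l, and the 3 genes most like each member. Values are printed for part of the genes so named, and counts cover whole lists. A few further genes are not reported here and were left out of the lists. Alternatives were a pseudocount of 0.1, no filter or a mean TPM of at least 5, quantile normalization, FPKM, median-of-ratios scaling, a replicate block, a robust spread, the compared groups alone, and leaving out each library. Other software was Python 3.11.15, numpy 2.4.6, pandas 2.3.3, scipy 1.17.1 and matplotlib 3.10.9.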

Additional observations from a re-analysis of the deposited data

How the results depend on the processing

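Across 21 alternatives, 812 values were recomputed for the tested members' changes: 770 kept direction and call, 19 lost the call, 15 gained it and 8 changed sign. For the other named genes 3112 of 3332 kept both and 220 lost the call. The number of members called in untreated KO against WT (5) was 3 at a mean TPM of at least 5 and 3 on FPKM, settings under which fewer members passed the filter. With etoposide in both genotypes (5) it ranged from 2 to 7 when each library was left out, with 3 without KO with etoposide replicate 3 and 2 without WT with etoposide replicate 2 or 3; the cause was not tested. It ranged from 4 to 5 for etoposide in WT cells, from 2 to 4 in KO cells, and stayed at 5 for untreated KO against WT and 0 for the difference between genotypes.

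The changes of sign all concerned changes not called under either setting: Dab2 with etoposide in WT cells was -0.104 after quantile normalization and ranged from -0.0615 to 0.144 over the omissions; Gata4 with etoposide in KO cells was -0.0312 after quantile normalization and ranged from -0.007 to 0.128; Lamc1 in untreated KO against WT ranged from -0.0701 to 0.0085; and the Sparc difference between genotypes ranged from -0.0691 to 0.0218. Same-numbered replicates did not deviate together (r -0.037 to 0.045 across genes), so the numbers do not pair the samples; with the replicate block, 5, 6, 5, 3 and 0 members were called in the order of the 5 comparisons, and Lamc1 gained a call in KO against WT with etoposide (adjusted p 0.0270) and for etoposide in WT cells (0.0483). Thin read depth limits Dab2, Gata6 and Sox17, and 3 libraries per group limit every comparison.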
